A study of Mus musculus with 45 samples.

Results

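Imprinted genes are transcribed mainly or only from the copy inherited from one parent, and 36 of them, chosen by name as classical members of the mouse imprinted clusters, were followed among the 35372 genes counted in each library. The RNA was from wild-type male embryonic stem cells (ESCs) of the E14tg2a line, of 129/Ola background, that were kept in 1 of 2 media and then differentiated. Of the 45 libraries, 23 were from 2iL cells, kept in serum-free N2B27 medium with the inhibitors CHIR99021 and PD0325901 and leukaemia inhibitory factor (LIF), and 22 were from SL cells, kept in serum and LIF. The authors describe the line as derived in SL and as given at most 3 passages in 2iL before differentiation. Cells of both origins were carried through 3 courses without LIF: suspension culture in serum (named EB in the labels, serum here), adherent culture with Fgf2 and Activin A (EpiSC in the labels, FA here) and adherent culture in plain N2B27 (Neural in the labels, serum-free here). Each medium, course and day had 1 library, at days 1, 1.5, 2, 2.5, 3, 5 and 7, with day 0 taken 3 times from 2iL and once from SL, and with day 5 of FA from 2iL not analysed here. All libraries were thus of 1 cell line, and the reads were counted without regard to the parental allele, so every value below is the sum of both copies.

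The parental copies of these genes are told apart by DNA methylation laid down in egg or sperm at imprinting control regions, which is then held through cell division by maintenance factors such as Dnmt1, Uhrf1, Trim28 and the zinc finger protein Zfp57. A single control region usually governs a cluster of protein-coding genes and long noncoding RNAs, so that neighbours can be on from opposite parents, as H19 (maternal) and Igf2 (paternal) are. Many imprinted genes act in growth of the embryo and placenta, are low in ESCs and come on as tissues form, and culture of ESCs with the inhibitors of 2iL is known for lowering DNA methylation across the genome. DNA methylation was not measured in these libraries.

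Counts per library ranged from 13093226 to 39804240, and the serum libraries from 2iL were deeper (median 34490692 over 8 libraries) than the others (median 17297450 over 37). Levels below are given in CPM (counts scaled by the total of each library), and 3 counts, taken as the limit of detection, came to 0.165 CPM at the median depth. Pluripotency markers (10 genes) summed to between 4794 and 5000 CPM at day 0 in 2iL, 3487 CPM at day 0 in SL and between 500 and 1088 CPM at day 7. At day 7 the serum-free libraries had all 9 neural markers at 1 CPM or more, with a sum of 512 to 814 CPM, but their 10 extraembryonic endoderm markers summed to 7145 to 8241 CPM. The highest of the 10 at day 7 was Lama1, at up to 5453 CPM, followed by Cubn at up to 1783 CPM, so these sums rest largely on few genes. The 11 mesoderm and blood markers summed to 185 and 713 CPM in serum at day 7 against 19.4 to 28.9 CPM in the other courses, and the 7 fibroblast markers to 366 and 797 CPM in FA against 30.05 to 93.5 CPM in the others. Because whole cultures were sequenced, fewer cells of a type and less RNA per cell cannot be told apart.

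Of the 36 genes, 34 reached 1 CPM in at least 1 library, and Airn, the noncoding RNA antisense to Igf2r, and Peg13, a noncoding RNA, were listed with 0 reads in all 45 libraries. Rtl1, a retrotransposon-derived gene opposite the Meg3 cluster of noncoding RNAs, stayed at or below 1.54 CPM and Kcnq1ot1, the noncoding RNA of the Cdkn1c cluster, at or below 1.17 CPM. At the other end, Peg10, another retrotransposon-derived gene, spanned 13.5 to 2536 CPM, Mest, which encodes a protein of the hydrolase fold, 29.2 to 2591 CPM, and the noncoding RNA H19 0.467 to 1466 CPM. The ubiquitin ligase Ube3a was the steadiest of the genes read at this depth in every library, between 101 and 243 CPM.

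**Figure D1:**
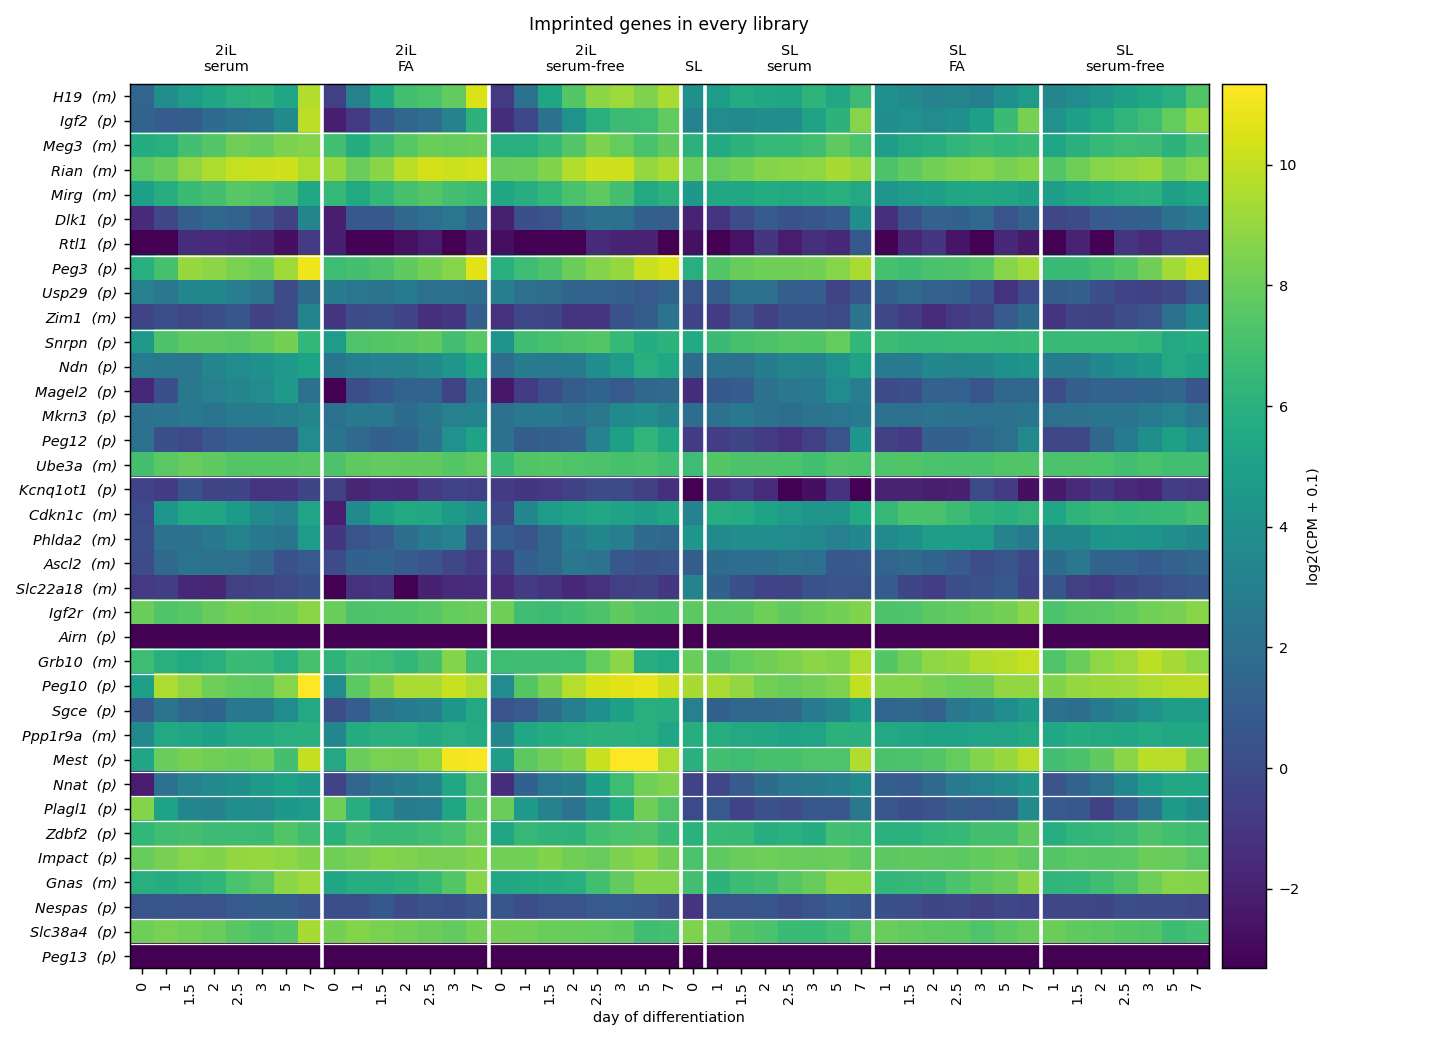
Level of each of the 36 imprinted genes (rows, by cluster, with m or p for the parental copy usually expressed) in each of the 45 libraries (columns, by medium of origin, course and day) as log2(CPM + 0.1). The columns of day 0 from 2iL are dark for H19, Igf2 and Nnat and bright for Plagl1, and the rows of Airn and Peg13 are at the bottom of the scale throughout.

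Divided by the length of the exons in the GENCODE annotation, so that genes could be compared with each other, the highest of the 36 at day 0 in 2iL were the amino acid transporter Slc38a4 at 70.2 ± 5.92 CPM per kilobase (SD, n = 3), the translation regulator Impact at 53.2 ± 5.29 and the zinc finger factor Plagl1 at 39.9 ± 9.51. The single SL library of day 0 was led by Peg10 at 102 CPM per kilobase, followed by Slc38a4 at 83.6 and Impact at 28.8, while Plagl1 was at 0.112 and ranked 28. In 2iL the mean of Slc38a4 was above that of Impact by more than either SD, whereas the ranges of 1 SD around Impact and Plagl1 met. At day 7 from 2iL, H19 led at 407 ± 164 CPM per kilobase, then Mest at 347 ± 218 and Peg10 at 220.0 ± 142. The ranges of 1 SD over the courses met for these 3. From SL, Mest at 169 ± 71.6, Peg10 at 119.7 ± 39.95 and the insulin receptor adaptor Grb10 at 83.6 ± 33.4 were the highest at day 7, and their ranges of 1 SD met too. The genes were read in the same libraries, and differences between them within a course were not tested.

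Across the 45 libraries the pattern most like that of Meg3, on the log2(CPM + 0.1) scale, was that of its neighbour Rian (Pearson r = 0.964), followed by Mirg (0.787) and H19 (0.693). Peg3, a zinc finger protein, was most like Nnat (0.870), Ndn (0.839) and Sgce (0.806), and H19 most like Peg10 (0.818), Nnat (0.810) and Peg3 (0.805). These values describe libraries that share courses and origins, and within the Meg3 cluster the transcripts lie on 1 strand of chromosome 12.

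The promoters of 3 genes that differed by medium of origin are shown because each holds the hexamer TGCCGC, whose methylated form Zfp57 is known to bind, before its start site; they were picked after the values were seen. Each is the stretch of 250 bases before the start in RefSeq on GRCm38.p6, 5′ to 3′ on the strand of the gene, with the hexamer or its reverse complement GCGGCA in capitals. The windows are chr10:13090582-13090831 (plus strand) for Plagl1, chr6:30737800-30738049 (plus strand) for Mest and chr12:109540746-109540995 (plus strand) for Meg3.
Plagl1: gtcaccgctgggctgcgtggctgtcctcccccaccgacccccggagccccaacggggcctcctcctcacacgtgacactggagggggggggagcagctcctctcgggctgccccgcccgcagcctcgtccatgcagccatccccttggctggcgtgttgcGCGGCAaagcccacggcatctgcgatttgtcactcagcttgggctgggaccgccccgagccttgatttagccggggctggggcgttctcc
Mest: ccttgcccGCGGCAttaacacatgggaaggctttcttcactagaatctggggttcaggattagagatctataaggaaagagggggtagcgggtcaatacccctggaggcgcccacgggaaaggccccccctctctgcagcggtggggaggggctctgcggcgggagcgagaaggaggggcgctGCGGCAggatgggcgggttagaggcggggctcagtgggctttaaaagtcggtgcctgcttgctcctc
Meg3: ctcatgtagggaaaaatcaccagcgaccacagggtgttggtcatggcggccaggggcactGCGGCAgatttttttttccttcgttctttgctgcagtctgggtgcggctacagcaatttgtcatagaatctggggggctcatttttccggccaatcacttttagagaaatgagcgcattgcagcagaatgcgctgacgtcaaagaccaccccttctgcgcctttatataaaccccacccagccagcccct

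The hexamer starts 90 bases before the start of Plagl1, 190 before that of Meg3 and, in Mest, at 242 and at 67 bases before the start. Promoters were found for 28 of the 36 genes, 45 promoters in all, and 10 of the 45 (22.2%) held TGCCGC on either strand within 300 bases, 250 before and 50 after the start, against 11.6% of the 32851 promoters in the table. These 10 include overlapping windows of Mest, which begin at 30737800 and 30737803. Counted by gene, 9 of the 28 held it in at least 1 promoter, and so did 6 of the 17 with a promoter that passed the threshold by origin at days 1 to 3, a like share. Among those 6 were Nnat, Snrpn and Grb10, which are not shown, and Grb10 was lower from 2iL. A match is a description of these letters and not a bound site.

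The first comparison was between undifferentiated cells of both media at day 0. Of 31 imprinted genes tested, 5 were higher in 2iL than in SL and 12 were lower, where 30.8% of all genes tested passed the threshold (an adjusted p under 0.05), 13.5% higher and 17.3% lower. The median log2 difference was −0.19 over the imprinted genes and 0.01 over all genes tested. None of the 14 genes usually expressed from the maternal copy was higher and 7 were lower, while of the 17 usually paternal genes 5 were higher and 5 lower. The usual parental copy is background knowledge and depends on the tissue for some genes, Grb10, Ube3a and Gnas among them.

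Plagl1 had the widest gap. Its level was 398, 274 and 264 CPM in the 3 libraries from 2iL and 0.878 CPM in that from SL, a log2 difference of 8.52 (SE 0.42, adjusted p = 1.9e-05, from the quasi-likelihood test of edgeR, adjusted over all genes by Benjamini-Hochberg, as for all adjusted p-values below). Usp29, a ubiquitin peptidase of the Peg3 cluster, was at 8.24, 7.45 and 7.66 CPM against 1.32 CPM (2.62, SE 0.35, adjusted p = 0.00090). Peg12, a Frat family gene of the Snrpn cluster, was at 4.55, 4.99 and 4.39 CPM against 0.494 CPM. For both genes every 2iL library lay above the SL library. Impact was higher by 0.95 on the log2 scale. Kcnq1ot1 was at 0.714, 0.599 and 0.513 CPM in 2iL and had no read in SL, so that its mean of 0.609 CPM was at least 3.70-fold higher than the 3 reads that a count of 0 allows there.

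The genes lower in 2iL lay in several clusters. Peg10 was at 30.4, 13.7 and 13.5 CPM in 2iL and 683 CPM in SL (−5.08, SE 0.35, adjusted p = 4.1e-05), and its neighbours Sgce, a sarcoglycan, and Ppp1r9a, the actin-binding neurabin, were lower by log2 differences of −2.52 and −2.24. In the Cdkn1c cluster, the transporter gene Slc22a18 (−5.03), the placental growth regulator Phlda2 (−4.08) and the cyclin-dependent kinase inhibitor Cdkn1c (−3.71) were all lower. Slc22a18 was near the limit of detection in 2iL, at 0 to 0.446 CPM, against 9.27 CPM in SL. Cdkn1c itself was at 0.892, 0.133 and 0.794 CPM in 2iL and at 9.05 CPM in the single SL library.

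H19 was at 2.71, 0.599 and 0.467 CPM in 2iL and 16.2 CPM in SL (−3.51, SE 0.63, adjusted p = 0.0035), and the growth factor Igf2 was at 2.498, 0.133 and 0.2801 CPM against 9.05 CPM (−2.99, SE 0.86, adjusted p = 0.029). Both members of this cluster were thus lower in 2iL together, although they are usually expressed from opposite copies. Grb10 was at 109, 75.4 and 109.65 CPM against 256 CPM, and Gnas, the stimulatory G protein subunit, at 58.4, 38.5 and 43.7 CPM against 120.5 CPM. The splicing protein gene Snrpn and Mest were lower by log2 differences of −1.07 and −0.65.

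Meg3, Rian and Mirg, the noncoding RNAs of the Dlk1 cluster, did not pass the threshold, with log2 differences of 0.24, 0.36 and 1.25 (adjusted p = 0.64, 0.56 and 0.077). Other genes that did not pass included the receptor Igf2r (0.43, adjusted p = 0.10), Peg3 (0.38, adjusted p = 0.38) and Ube3a (0.28, adjusted p = 0.31). Dlk1, a Notch-like membrane protein, and Magel2, of the MAGE family, had too few reads at day 0 to be tested.

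**Figure D2:**
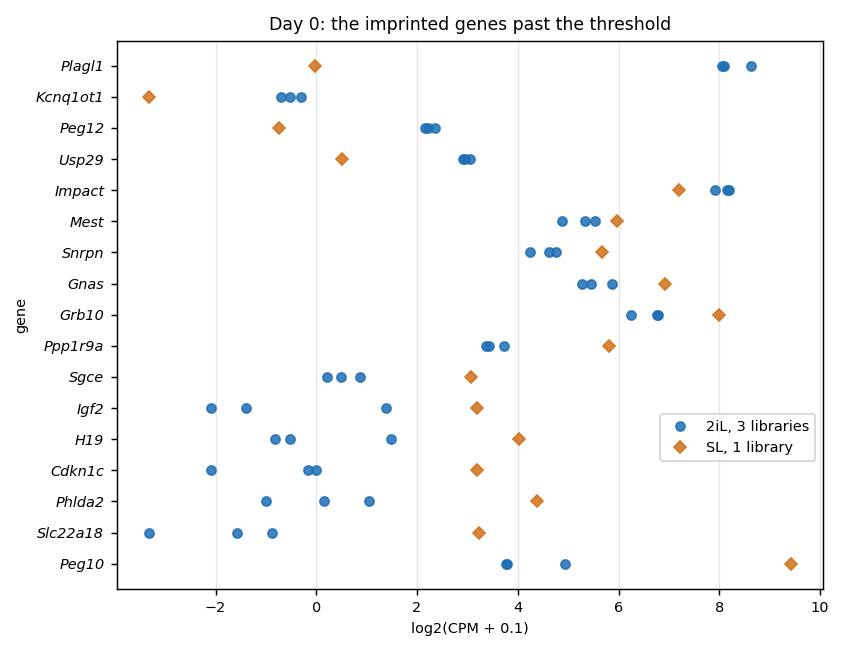
Level at day 0 of the 17 imprinted genes that passed the threshold, as log2(CPM + 0.1), with circles for the 3 libraries from 2iL and a diamond for the library from SL. For every gene shown the SL library lies outside the range of the 2iL libraries, above it for 12 genes and below it for 5. The genes were picked by the test on these same libraries, so this adds no support to it.

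The SL group was 1 library, so the spread came from the 2iL libraries, and with the spread taken over all 45 libraries 12 of the 31 passed in place of 17. The 10 extraembryonic endoderm markers summed to 1048 CPM in the SL library, with 8 of them at 1 CPM or more, against 203 to 259 CPM and 2 to 4 in 2iL. Lama1 alone was at 612 CPM in the SL library and at up to 256 CPM in 2iL, where it made up most of the sum. The part of these markers in the differences was not tested.

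The second comparison followed the 2iL cells into differentiation. Most imprinted genes rose. At day 7 against day 0, 22 of the 33 tested were higher and 1 lower, where 63.6% of all genes tested passed, 33.8% higher and 29.9% lower. The median log2 change was 2.12 over the imprinted genes and 0.04 over all genes. At day 3 against day 0, 23 were higher and 2 lower (51.4% of all genes passed, 27.2% higher and 24.1% lower), and at day 1, 12 were higher and 2 lower (28.6% of all genes, 14.6% higher). By usual parental copy, 9 of 14 maternal genes were higher and 0 lower at day 7, and 13 of 19 paternal genes were higher and 1 lower.

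H19 and Igf2, neighbours usually expressed from opposite copies, both rose. H19 went from at most 2.71 CPM at day 0 to 812 CPM in serum, 1466 CPM in FA and 726.5 CPM in serum-free at day 7 (log2 change 9.24, SE 1.14, adjusted p = 4.1e-06). Igf2 reached 940.0, 71.6 and 228 CPM in the same order (8.50, SE 1.38, adjusted p = 6.0e-05). H19 was above its day 0 level by day 1, at 14.98, 8.30 and 4.56 CPM, whereas Igf2 was still at 1.84, 0.461 and 0.813 CPM on that day and did not pass the threshold then. In serum, Igf2 stood at 12.4 CPM at day 5 and 940.0 CPM at day 7.

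Nnat, the membrane protein neuronatin, rose to 24.2, 160.4 and 369.5 CPM in serum, FA and serum-free at day 7 from at most 0.665 CPM at day 0 (8.93, SE 1.10, adjusted p = 3.9e-06). Peg10 rose to 2536, 739 and 1127 CPM (6.16), and its neighbour Sgce by 5.01. Mest rose to 1017, 2351 and 742 CPM (5.01, SE 0.86, adjusted p = 1.0e-04). All libraries of day 7 lay above all of day 0 for each of these genes, which were named for passing the test on the same libraries. The share of all genes separated in this way was not counted. Peg3 rose to 1962, 1660.0 and 1538 CPM from 60.5, 108 and 58.0 CPM (4.42), with all 3 courses above every day 0 library.

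In the Snrpn cluster, Magel2 (5.58), Ndn or necdin (2.93), Peg12 (2.29), Snrpn (2.17), the ring finger gene Mkrn3 (1.17) and Ube3a (0.34) were all higher at day 7. Cdkn1c rose early: it was at 20.7, 12.3 and 11.2 CPM at day 1, against less than 1 CPM at day 0 in each library, and the log2 change was 4.49 at day 1, 5.14 at day 3 and 5.49 at day 7. Phlda2 rose by 2.74, Gnas by 3.26 with a standard error of 0.15, and Meg3 and Rian by 1.83 and 1.48. The rise of Phlda2 was uneven, with 1.16 to 26.8 CPM at day 7 against 0.399 to 1.96 CPM at day 0, so the days overlapped. Dlk1 rose by 4.75 but stayed at 10.2, 2.80 and 2.08 CPM, and Zim1, a zinc finger gene next to Peg3, rose by 3.34.

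Only Usp29 was lower at day 7, by a log2 change of −1.34. Plagl1 fell to 36.9, 56.9 and 24.7 CPM at day 1, was at 9.32, 7.13 and 4.76 CPM at day 2, and stood at 25.8, 197 and 156 CPM at day 7. Its log2 change was −3.07 at day 1 and −3.37 at day 3, both past the threshold, and −1.61 (adjusted p = 0.063) at day 7. Igf2r fell by 0.92 on the log2 scale at day 1 and was at −0.04 (adjusted p = 0.86) at day 7. Grb10 in turn was higher at day 3 (1.48, adjusted p = 0.017) and at 0.03 (adjusted p = 0.96) at day 7.

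**Figure D3:**
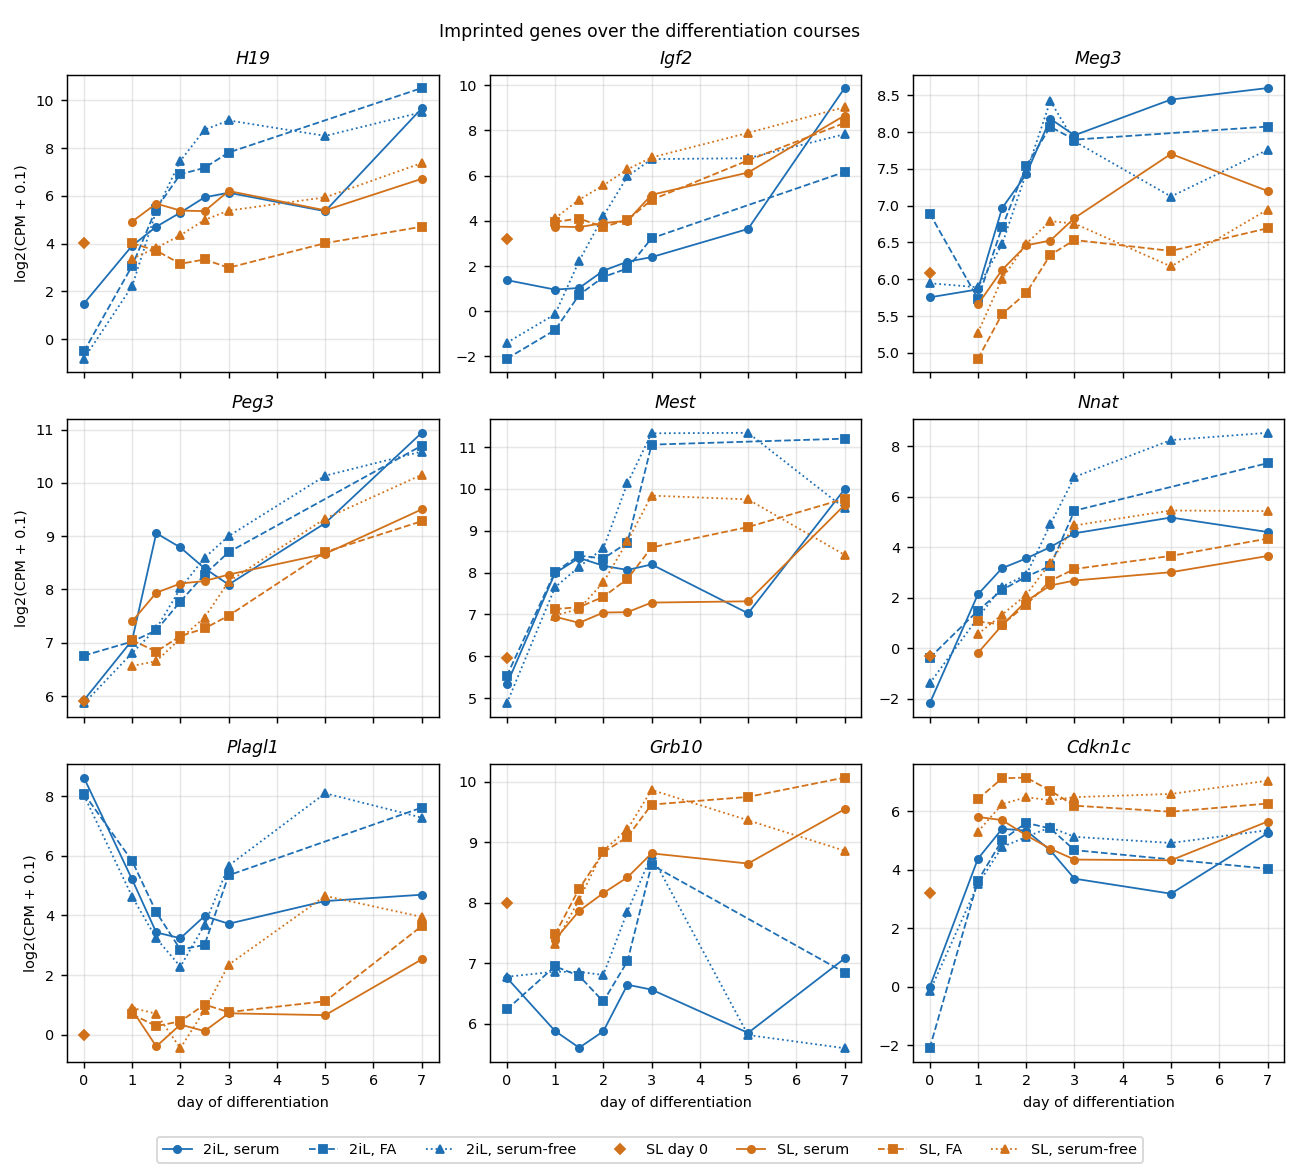
Level over the days of differentiation of 9 imprinted genes, as log2(CPM + 0.1), from 2iL (blue) and SL (orange) in serum (circles, solid), FA (squares, dashed) and serum-free culture (triangles, dotted), with 1 library at each point and a diamond for SL at day 0. Plagl1 from 2iL dips to between 4.76 and 9.32 CPM at day 2, and Grb10 from SL stays above Grb10 from 2iL at day 7 in each course.

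The 3 courses stood in for replicates at each day, so these changes are averages over unlike cultures. A single course can depart from them. Ube3a from 2iL ranged from 117 to 209 CPM at day 7 against 101 to 150 CPM at day 0. Grb10 from 2iL ranged from 94.6 to 440 CPM at day 3 against 75.4 to 110 CPM at day 0. Markers moved over the same days: 9 of 10 of extraembryonic endoderm, 8 of 9 of neural cells, 7 of 11 of mesoderm and blood, 6 of 6 tested of fibroblasts and 3 of 6 tested of trophoblast were higher at day 7, while 1 of trophoblast was lower and pluripotency markers split into 3 higher and 7 lower. Their part was not tested. The count at day 1 rested most on single courses: it was 6 without FA, 9 without serum-free and 9 without the course as a block, against 14.

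From SL, which had no day 0 library in a course, day 7 was set against day 1. Here 18 of 33 imprinted genes were higher and 1 lower, with 59.7% of all genes past the threshold (30.4% higher, 29.3% lower). In the same fit 18 were higher and 2 lower from 2iL, with 66.7% of all genes (34.7% higher, 32.1% lower). Igf2 rose from 13.3, 15.4 and 17.2 CPM at day 1 to 405, 322 and 523 CPM at day 7 from SL (4.66, SE 0.87). Peg12 (5.20), Dlk1 (4.06), Nnat (3.99), Zim1 (3.30), Sgce (3.05), Plagl1 (2.60), Peg3 (2.59), Mest (2.40) and Gnas (2.36) rose as well. From 2iL the genes that rose most on the log2 scale were Igf2 (8.65), H19 (6.78), Nnat (5.33), Sgce (3.79), Peg12 (3.71), Peg3 (3.69) and Gnas (3.05). Ube3a fell by 0.25 from 2iL, and was at −0.20 (adjusted p = 0.10) from SL. Ascl2, a transcription factor of trophoblast, fell from both origins, by 1.08 on the log2 scale from SL and by 1.31 from 2iL, from 2.17 to 3.53 CPM at day 1 in the 6 cultures to 0.475 to 2.80 CPM at day 7.

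The change from day 1 to day 7 differed between origins for 2 of the 33, H19 and Grb10, where 3.22% of all genes tested differed (1.93% higher from 2iL, 1.29% lower). H19 went from 14.98, 8.30 and 4.56 CPM in serum, FA and serum-free to 812, 1466 and 726.5 CPM from 2iL, but from 30.2, 16.1 and 10.3 CPM to 105, 26.1 and 166 CPM from SL. The log2 changes were 6.78 (SE 1.06) and 2.06 (SE 0.87), and the difference between them was 4.72 (SE 1.25, adjusted p = 0.034). Grb10 went from 58.9, 124 and 116 CPM to 135, 115 and 48.4 CPM from 2iL, and from 168, 178 and 159.9 CPM to 746, 1071 and 464 CPM from SL, with log2 changes of 0.08 (SE 0.39) and 2.10 (SE 0.40) and a difference of −2.03 (SE 0.55, adjusted p = 0.040). Both calls were lost when FA or serum-free was left out and without the course as a block (0 of 33 in each case), and without serum 4 passed. Among the markers, 4 of 10 of extraembryonic endoderm, 1 of 7 tested of trophoblast and 1 of 9 of neural cells also changed more from 2iL and none of any list less, and their part in both results was not tested.

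The third comparison asked whether the medium the cells came from was still visible in the imprinted genes during the first 3 days. With the counts of days 1 to 3 summed in each of 6 cultures and the course as a block, 14 of 34 genes tested were higher from 2iL and 4 lower, against 13.4% of all genes tested, 7.31% higher and 6.06% lower. The median log2 difference was 0.47 over the imprinted genes and −0.00 over all genes. All 10 usually paternal genes that passed were higher from 2iL, of 20 tested, and the 14 usually maternal genes split into 4 higher and 4 lower. Taken library by library, 15 of the 34 genes that reached 1 CPM differed in 1 direction in all 15 matched pairs of course and day (8.33% of 16061 genes did), but for none were the 15 libraries of one origin clear of the 15 of the other (0.411% of genes).

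Plagl1 was the gene most above in cells from 2iL. Its levels were 4.76, 13.1 and 56.9 CPM (lowest, median and highest of 15 libraries) from 2iL and 0.627, 1.52 and 4.99 CPM from SL (log2 difference 3.74, SE 0.15, adjusted p = 0.0024). Only the lowest library from 2iL and the highest from SL overlapped, while the difference was 3.60 in serum, 3.60 in FA and 3.04 in serum-free. Nnat was at 2.21, 8.88 and 109.9 CPM from 2iL and 0.777, 3.53 and 29.0 CPM from SL (1.77, SE 0.08, adjusted p = 0.0024). Mest was at 200.7, 323 and 2570 CPM against 111, 144 and 916 CPM (1.41, SE 0.13, adjusted p = 0.0077).

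The 3 noncoding RNAs of the Dlk1 cluster were higher from 2iL in all 15 pairs. Meg3 was at 53.2, 174 and 343 CPM from 2iL and 30.2, 80.3 and 114 CPM from SL (1.27, SE 0.12, adjusted p = 0.0078). Rian, which hosts small nucleolar RNAs, was at 252, 788 and 1321 CPM against 149, 363 and 553 CPM (1.24, SE 0.14, adjusted p = 0.011). Mirg, which hosts microRNAs, was at 47.6, 128 and 206 CPM against 20.0, 42.0 and 66.2 CPM (1.53, SE 0.12, adjusted p = 0.0058). Dlk1, usually read from the other copy, was also higher, at a median of 2.48 CPM against 1.39 CPM and in 14 of 15 pairs (0.78).

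The other genes higher from 2iL were Peg12 (1.42), Usp29 (1.27), Peg3 (0.71), Impact (0.71), Snrpn (0.58), Slc38a4 (0.51) and Ube3a (0.36). Impact had a median of 351 CPM from 2iL and 206 CPM from SL and was higher in all 15 pairs. Snrpn overlaps the exons of Snurf and of a further gene model on the same strand, by 805 bases when both overlaps are added, so its reads are uncertain.

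The 4 genes lower from 2iL were all usually maternal. Grb10 was at 48.6, 112 and 440.1 CPM from 2iL against 159.9, 342 and 930.4 CPM from SL, lower in all 15 pairs (−1.55, SE 0.18, adjusted p = 0.012). Phlda2 was at 1.32, 5.89 and 10.5 CPM from 2iL against 10.3, 14.6 and 30.2 CPM (−1.62, SE 0.22, adjusted p = 0.016), which left an overlap of less than 1 CPM. Slc22a18 (−1.50) and Gnas (−0.43) were lower in all 15 pairs too. Slc22a18 was near the limit of detection, at 0, 0.330 and 0.707 CPM from 2iL against 0.470, 1.01 and 2.21 CPM from SL.

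H19, Igf2 and Cdkn1c did not pass. Igf2 was lower from 2iL in all 15 pairs (−1.77, SE 0.42, adjusted p = 0.052), and Cdkn1c in 14 of 15 (−1.14, SE 0.26, adjusted p = 0.050). H19 went different ways by course: its mean log2 difference was −0.31 in serum, 2.65 in FA and 2.21 in serum-free (2.30 in the fit, SE 0.84, adjusted p = 0.13).

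**Figure D4:**
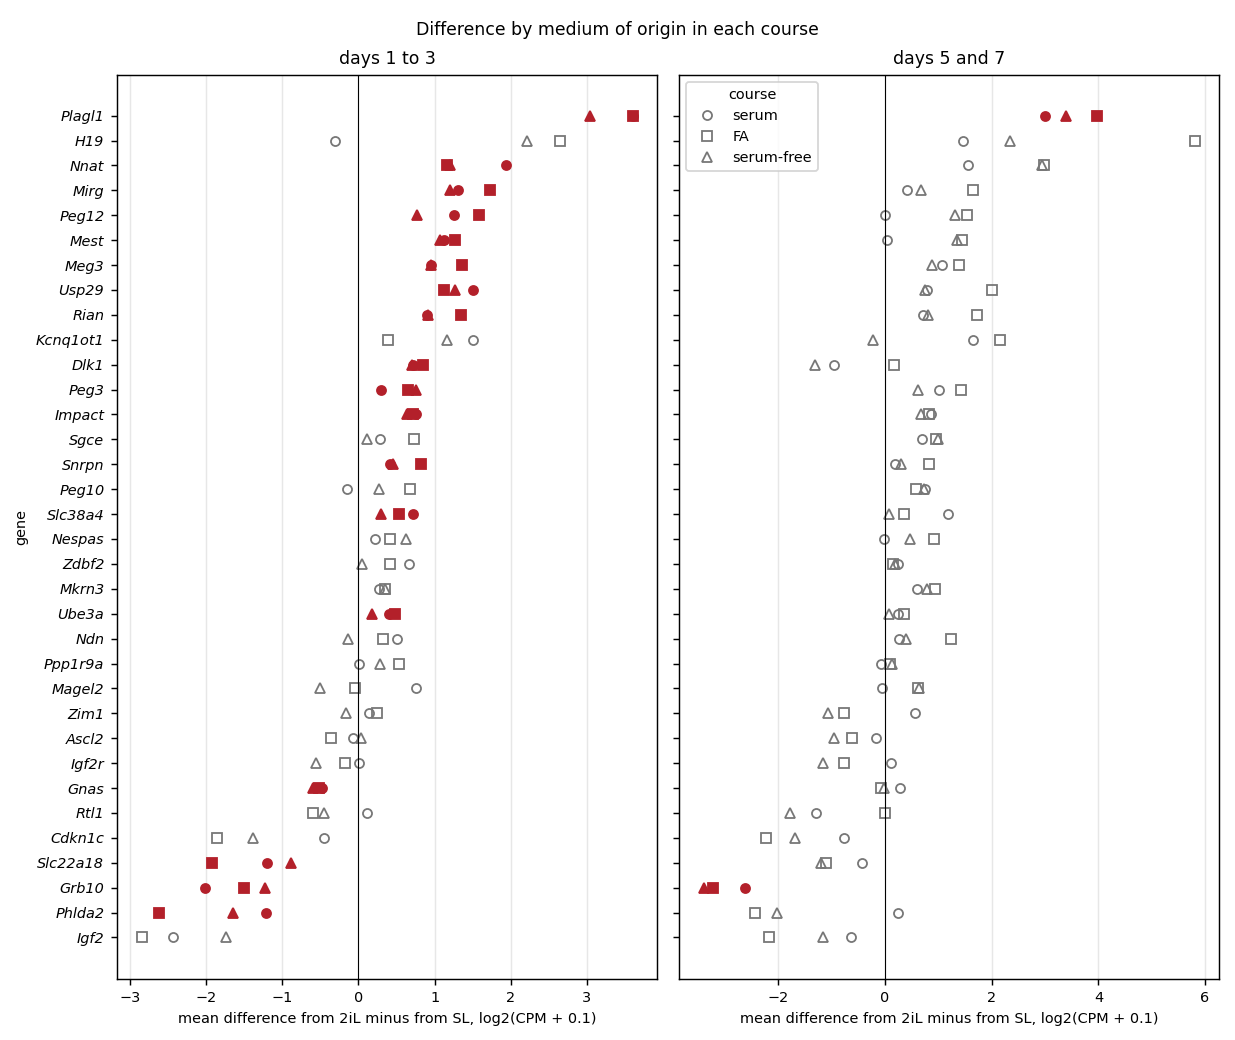
Mean difference from 2iL minus from SL, in log2(CPM + 0.1), of each imprinted gene tested at days 1 to 3, in serum (circles), FA (squares) and serum-free culture (triangles), over days 1 to 3 on the left and over days 5 and 7 (day 7 alone in FA) on the right, with genes past the threshold in filled red. On the left 14 red genes lie to the right of zero and 4 to the left, and on the right only Plagl1 and Grb10 are red.

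The count depended on the cultures: it was 24 without serum, 8 without FA, 3 without serum-free and 5 without the course as a block, against 18, with Plagl1 past the threshold in each case. All 10 extraembryonic endoderm markers were lower from 2iL and summed to 39.5 to 617 CPM from 2iL against 763 to 3170 CPM from SL without overlap. Of the other marker lists, 2 of 10 of pluripotent cells, 2 of 8 tested of neural cells, 1 of 6 tested of trophoblast and 1 of 5 tested of fibroblasts were higher from 2iL, and 2 of neural cells, 2 of trophoblast and 1 of 9 tested of mesoderm and blood were lower. Their part in these differences was not tested.

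By days 5 and 7, summed in the same way, 1 gene was higher from 2iL and 1 lower of 33 tested, against 0.0783% of all genes tested (12 genes, 0.0717% higher and 0.00652% lower). Plagl1 was at 22.3, 276, 25.8, 197 and 156 CPM in the 5 libraries from 2iL (serum day 5, serum-free day 5, then serum, FA and serum-free at day 7) and at 1.47, 25.1, 5.65, 12.4 and 15.4 CPM in the matched ones from SL (3.34, SE 0.24, adjusted p = 0.035). Grb10 was at 57.7, 56.3, 135, 115 and 48.4 CPM from 2iL and 401, 657, 746, 1071 and 464 CPM from SL (−3.13, SE 0.20, adjusted p = 0.023). Plagl1 was higher from 2iL in all 5 pairs, but its lowest library from 2iL lay below its highest from SL. The libraries of both origins were clear of each other for Grb10 and Impact, as for 0.616% of the 16061 genes that reached 1 CPM. Impact, at 282 to 458 CPM from 2iL and 193 to 256 CPM from SL, did not pass the test (0.75, SE 0.09, adjusted p = 0.19).

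Other genes that were past the threshold at days 1 to 3 did not pass here, such as Nnat at 2.48 (adjusted p = 0.24), Meg3 at 1.08 (adjusted p = 0.086) and Mest at 0.98 (adjusted p = 0.63). Dlk1 was at −0.70 (adjusted p = 0.70), against 0.78 at days 1 to 3. Whether the earlier and later differences differ from each other was not tested. Without serum 8 genes passed, and without serum-free or without the course as a block none did.

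The last comparisons set the courses against each other at day 7, with 1 culture of each origin in each course. Of 33 imprinted genes tested, 1 (3.03%) passed between serum and FA, 2 (6.06%) between serum and serum-free and 3 (9.09%) between FA and serum-free. Of all genes tested, 0.952%, 7.65% and 8.22% passed in the same order. The shares in both comparisons with serum-free were thus near those of all genes. Zdbf2, a zinc finger gene, was the only imprinted gene to pass between serum and FA. It was at 116 and 109 CPM in serum (from 2iL and SL) and 236 and 214 CPM in FA (−0.98, SE 0.12, adjusted p = 0.040, edgeR, 0.952% of all genes past the threshold, 0.469% higher and 0.483% lower in serum). It was also higher in FA than in serum-free, where it was at 101.6 and 104 CPM (1.01, SE 0.12, adjusted p = 0.014, 8.22% of all genes, 2.85% higher and 5.37% lower).

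Nnat and Plagl1 were lower in serum than in serum-free, of 33 tested and with 7.65% of all genes past the threshold, 2.2% higher and 5.45% lower. Nnat was at 24.2 and 12.4 CPM in serum and 369.5 and 42.9 CPM in serum-free (−2.92, SE 0.57, adjusted p = 0.042). Plagl1 was at 25.8 and 5.65 CPM in serum and 156 and 15.4 CPM in serum-free (−2.14, SE 0.41, adjusted p = 0.041). The courses did not overlap for Nnat, whereas Plagl1 in serum from 2iL was above Plagl1 in serum-free from SL.

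Between FA and serum-free, Mest (1.39, SE 0.27, adjusted p = 0.041) and Snrpn (1.03, SE 0.20, adjusted p = 0.042) were higher in FA with Zdbf2. Mest was at 2351 and 869 CPM in FA and 742 and 343 CPM in serum-free, and Snrpn at 185 and 103.7 CPM against 72.2 and 54.7 CPM, without overlap for either gene. Groups of 2 cultures leave 2 residual degrees of freedom, and leaving out single libraries moved these counts between 0 and 16. The calls were lost without either serum-free library in all 3 comparisons, and without the serum library from SL the counts were 16 for serum against FA, 14 for serum against serum-free and 16 for FA against serum-free.

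Cell type markers differed between the courses as well, and their part was not tested. In serum against FA, 3 of 10 extraembryonic endoderm and 3 of 11 mesoderm and blood markers were higher and 1 of 7 fibroblast markers was lower. In serum against serum-free, the comparison with Nnat and Plagl1, 5 of 10 extraembryonic endoderm, 3 of 9 neural and 1 of 7 trophoblast markers were lower, 4 of 11 mesoderm and blood markers and 1 of 7 fibroblast markers were higher, and pluripotency markers split into 3 higher and 2 lower. In FA against serum-free, 6 of 10 extraembryonic endoderm and 3 of 7 trophoblast markers were lower, 3 of 7 fibroblast markers were higher, pluripotency markers split into 3 higher and 2 lower, and mesoderm and blood markers into 1 higher and 1 lower.

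Factors that set, hold or remove the methylation of imprints, or otherwise act on them, were taken as a list of 18 genes, all tested. Tet1, Tet2 and Tet3 are on the side of removal, so the counts mix factors of opposite roles. At day 0, 4 were higher in 2iL and 4 lower, where 30.8% of all genes passed (13.5% higher, 17.3% lower). Dppa3, a protector of maternal methylation, was higher (4.41), as were Uhrf1 (0.88) and Zfp445 (0.70), while Dnmt3l, the cofactor of the de novo methyltransferases, was lower by a log2 difference of −5.35 (6.75 CPM in 2iL on average, 297 CPM in SL) with Dnmt3a (−1.22) and Dnmt3b (−0.97). At day 7 against day 0 from 2iL, 4 were higher, among them Dnmt3a (2.05) and Tet3 (1.63), and 11 were lower, among them Dppa3 (−4.23), Tet2 (−3.77), Zfp57 (−2.52) and Tet1 (−2.49), where 33.8% of all genes were higher and 29.9% lower. By origin at days 1 to 3, Dnmt3l (0.87), Zfp57 (0.49), Tet2 (0.43) and Zfp445 (0.37) were higher from 2iL and none was lower (7.31% and 6.06% of all genes), and none of the 18 passed at days 5 and 7 (0.0783% of all genes). The median log2 change of the list was −0.84 at day 7 against day 0.

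A second list held 44 further imprinted genes or neighbours of the same clusters. At day 0, 5 of 30 tested were higher in 2iL and 10 lower, beside 13.5% and 17.3% of all genes. At day 7 against day 0, 15 of 35 were higher and 8 lower with a median log2 change of 0.61, and the 23 of 35 past the threshold were near the 63.6% of all genes that passed. By origin at days 1 to 3, 7 of 36 were higher from 2iL and 3 lower (7.31% and 6.06% of all genes), with Nap1l5 (4.17), a nucleosome assembly protein, the most above and Sfmbt2 (−2.15), a Polycomb protein imprinted in trophoblast, the most below. Nap1l5 averaged 1.71 CPM at day 3 from 2iL and 0.0707 CPM from SL, and Sfmbt2 15.3 and 59.2 CPM. None of 33 tested passed at days 5 and 7.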

How the data were processed

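The authors trimmed the adaptors, mapped the reads with TopHat2 to the mouse genome (GRCm38) and obtained strand-specific gene counts with featureCounts, and these deposited counts, 1 table per library with no normalization, were used as they stood. Libraries were made from ribosomal-RNA-depleted total RNA. Each library was identified by the title in its labels. Rows without a gene symbol (435, with 0.000879% of the counts) were kept in the totals and named no gene here. CPM is a count divided by the total of its library. Exon lengths and positions came from GENCODE, which held 34599 of the 35372 gene identifiers, and is not the annotation the authors counted with. Promoter sequences came from RefSeq (GRCm38.p6).

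The fits used edgeR 4.0.16 in R 4.3.3: TMM factors (0.839 to 1.099), the filterByExpr filter on low counts, the quasi-likelihood test and Benjamini-Hochberg adjustment over all genes tested, with a threshold of 0.05. Day 0 was fitted on 4 libraries, the days from 2iL on 23 and the days of both origins from day 1 on 41, with course as a block, and the courses at day 7 on 6 with medium as a term. For the comparisons by origin, the days of a culture are not independent, so counts were summed per culture. Same-course libraries of the 2 origins deviated together (correlation of the deviations from the day means 0.164 to 0.792, 20 pairs), and the pairing comes from the course named in the labels. No source says whether courses were started from separate cultures, so p-values and standard errors rest on the spread between these libraries. Limits of detection cover counting error only. No 2 libraries held identical counts.

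All 36 genes were described. The plan was to name up to 10 of those past the threshold in each comparison, by the size of the log2 change. More than 10 were named at day 0, at day 7 against day 0 and by origin at days 1 to 3. From the list of factors that act on imprints up to 6 and from the neighbours up to 5 could be named. Genes and lists were chosen with earlier results of these data known. The code was tested on simulated counts. DESeq2 1.42.0, other scalings and filters, fits without the block or without single libraries were the alternatives; library totals in place of TMM, day 3 alone and days 1.5 to 3 were added after seeing the data. Of the lists of markers of cell types, the summed levels are given.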

Additional observations from a re-analysis of the deposited data

Results flagged for a closer look

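For H19 the change from day 1 to day 7 was larger in cells from 2iL than in cells from SL, by 4.72 on the log2 scale, and this difference passed its own test (adjusted p = 0.034, edgeR's quasi-likelihood test). At day 7 the 3 libraries from 2iL (726.5 to 1466 CPM) lay above the 3 from SL (26.1 to 166 CPM), while at day 1 those from 2iL were the lower in each course.

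For Grb10 the change was smaller from 2iL than from SL, with a difference of −2.03 on the log2 scale (adjusted p = 0.040, edgeR's quasi-likelihood test). At day 7 the libraries from 2iL were at 48.4 to 135 CPM and those from SL at 464 to 1071 CPM. These 2 were picked by the test out of 33 imprinted genes, where 3.22% of all genes tested passed, and no explanation was tested. Both calls were lost without FA, without serum-free and without the course as a block.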

How the results depend on the processing

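The values checked were the largest log2 changes among genes past the threshold, up to the planned number of genes in each comparison. Smaller changes named beyond that number were not in this tally. The values checked kept their direction and side in 531 of 616 alternatives, lost the threshold in 84 and turned in 1. The value that turned was Mest in FA against serum-free, at −0.15 (adjusted p = 0.92, edgeR) when all 11 libraries of days 5 and 7 were used. The cause was not tested.

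Counts of imprinted genes past the threshold moved by over 1.5 times as follows. Without the course as a replicate block they were 9 in place of 14 at day 1, 5 in place of 18 by origin at days 1 to 3, and 0 in place of 2 both by origin at days 5 and 7 and for the difference of the changes; the block changed no other count by that much. By origin at days 1 to 3 the count was 29 with each library taken as 1 sample and 5 with day 3 alone, and at days 5 and 7 it was 0 with each library as 1 sample and 13 in DESeq2. For the difference of the changes it was 4 in DESeq2 and 1 without the filter. Between courses DESeq2 gave 5, 6 and 7 in place of 1, 2 and 3 (serum against FA, serum against serum-free, FA against serum-free); serum against FA gave 3 without the filter and 0 with all 11 libraries, serum against serum-free 11 with all 11 libraries, and both comparisons with serum-free 1 without the medium term.

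Leaving out 1 course or library gave 17 to 18 at day 0, 6 to 14, 20 to 24 and 19 to 23 at days 1, 3 and 7 against day 0, 13 to 19 from SL and 17 to 21 from 2iL for day 7 against day 1, 0 to 4 for their difference, 3 to 24 and 0 to 8 by origin, and 0 to 16, 0 to 14 and 0 to 16 between courses, where the lone culture of a course is assumed to vary like the others. Library totals in place of TMM put the median of all genes at 0.10 to 0.11 on the log2 scale in both comparisons with serum-free and in those of day 7 from 2iL, and moved the share of higher calls among all genes from 28.7% to 39.1% and from 34.7% to 47.5% in the 2 comparisons with serum-free. At the median depth a gene under 0.165 CPM was not detectable.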

Other observations

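In serum culture some imprinted genes peaked before day 7 in cells of both origins, a pattern that entered none of the comparisons. Snrpn was at 314 CPM at day 5 and 82.8 CPM at day 7 from 2iL, and at 238 and 84.98 CPM from SL. Magel2 went from 23.8 to 4.10 CPM from 2iL and from 14.04 to 7.54 CPM from SL between the same days. In serum-free culture Mest was at 2591 CPM at day 5 and 742 CPM at day 7 from 2iL, and at 859.9 and 343 CPM from SL. Each value is 1 library.

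Peg3 in serum from 2iL stood at 132 CPM at day 1, 532 CPM at day 1.5 and 273 CPM at day 3, whereas in FA and serum-free from 2iL it was at 150.3 and 153.5 CPM at day 1.5 and 416 and 512 CPM at day 3. Slc38a4 was at 681 CPM in serum from 2iL at day 7, the highest of its 45 values, against 195 CPM in serum from SL on that day. Each of these cultures had 1 library, and no test was made.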
